A study of Solenopsis invicta with 12 samples.

Results

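The genes described here are 78 official genes whose antennal transcript level was highest in workers of monogyne colonies of the fire ant *Solenopsis invicta*. They were selected on the measured values themselves, from 15589 genes of the official gene set (identifiers beginning with SINVm1) among the 19230 genes of the tables. TPM is the share of a library's transcripts that belong to a gene, corrected for gene length and scaled to the same total in every library. A gene was taken when its mean TPM over the 12 libraries lay between 5 and 500, which held for 8316 official genes, and when the monogyne library had the highest TPM in each of the 4 bioreplicates, which left 147. Of these, 82 had a monogyne mean at least 1.5 times the mean of the 8 polygyne libraries. A further 3 were dropped because SB/Sb was the lowest class in all 4 bioreplicates, and 1 because it was set aside by name. SINVm1_gene_13170 was kept although SB/Sb was never above SB/SB within a colony, because both were at 0 in bioreplicate 2 and a tie was not taken as lowest. Because the comparison of monogyne with polygyne workers chose the genes, its values below are a description.

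Each library was made from the pooled antennae of workers of 1 genotype from 1 colony. Monogyne colonies have a single queen and all their workers are SB/SB, that is, they carry the SB variant of the social supergene on both chromosomes (M_BB). Polygyne colonies have several queens and hold both SB/SB workers (P_BB) and SB/Sb workers with 1 copy of each variant (P_Bb). The 4 bioreplicates of each class are numbered 2, 3, 6 and 7. The M_BB libraries came from colonies Rui7, Zhuang3, Tan1 and Rui1 in that order, and the P_BB and P_Bb libraries from nestmates of colonies Rui9, Gui3, Bang3 and Bo5, so that the 8 polygyne libraries rest on 4 colonies. Social form and colony cannot be told apart beyond the spread among these colonies.

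Worker antennae are the main organ of smell. They hold sensory neurons and their support cells, the cuticle with its epidermis, and hemolymph that carries blood cells. Lipid enzymes in insects build membranes, fat stores and the hydrocarbons and waxes of the cuticle, through which ants recognise each other, while prophenoloxidase and scavenger receptors belong to the immune functions of hemocytes. In RNA from a whole organ, fewer cells of a type and less RNA per cell cannot be told apart.

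The libraries held from 1662249 expected counts (M_BB bioreplicate 7) to 4101327 (P_Bb bioreplicate 6), where an expected count is RSEM's estimate of the read pairs belonging to a gene. The 10 most counted genes took from 7.98% to 20.6% of a library, and the TMM scaling factors of edgeR ranged from 0.842 (P_BB bioreplicate 2) to 1.12 (M_BB bioreplicate 3). P_BB bioreplicate 2 had the lowest TPM of all 12 libraries for 33 of the 78 genes, and P_Bb bioreplicate 3 for 16. In these counts a tie, such as at 0, was credited to the first library in the order M_BB, P_BB, P_Bb. Of the 8316 official genes at a mean TPM of 5 to 500, M_BB bioreplicate 2 was lowest or tied for 3029. P_BB bioreplicate 2 was credited with 1963, but the rule bars an M_BB library from being lowest in the 78. Library names begin with LGC16 for M_BB bioreplicate 2 and the 3 libraries of bioreplicate 7, and with LGC for the others. Among odor genes, the odorant receptor gene SiOR463 (XLOC_016888) was measured in every library, from 3.94 to 16.0 TPM. SiOR462 (SINVm1_gene_13698) ranged from 0 to 6.59 TPM, and the odorant-binding protein gene SINVm1_gene_02111 from 0 to 105 TPM. No other tissue was measured, and the study reported SiOR463 as deleted from the Sb genome, so these levels do not check the tissue. Reads of amplified RNA with no molecular identifiers are not separate molecules, and intervals here cover counting error alone.

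Together the 78 genes made up 4630, 3648, 4340 and 4578 TPM in the M_BB libraries of bioreplicates 2, 3, 6 and 7. The P_BB libraries held 1449, 2568, 2182 and 2555 TPM, and the P_Bb libraries 1873, 1692, 2111 and 2427 TPM. The sum was thus 4299 ± 452 TPM (SD, n = 4) in M_BB against 2107 ± 410.8 TPM (SD, n = 8) in the polygyne libraries, a ratio of 2.04. The monogyne sums did not overlap the polygyne sums, which the choice of genes made likely. P_BB (2189 ± 524 TPM, SD, n = 4) and P_Bb (2025 ± 318 TPM, SD, n = 4) overlapped widely.

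**Figure D1:**
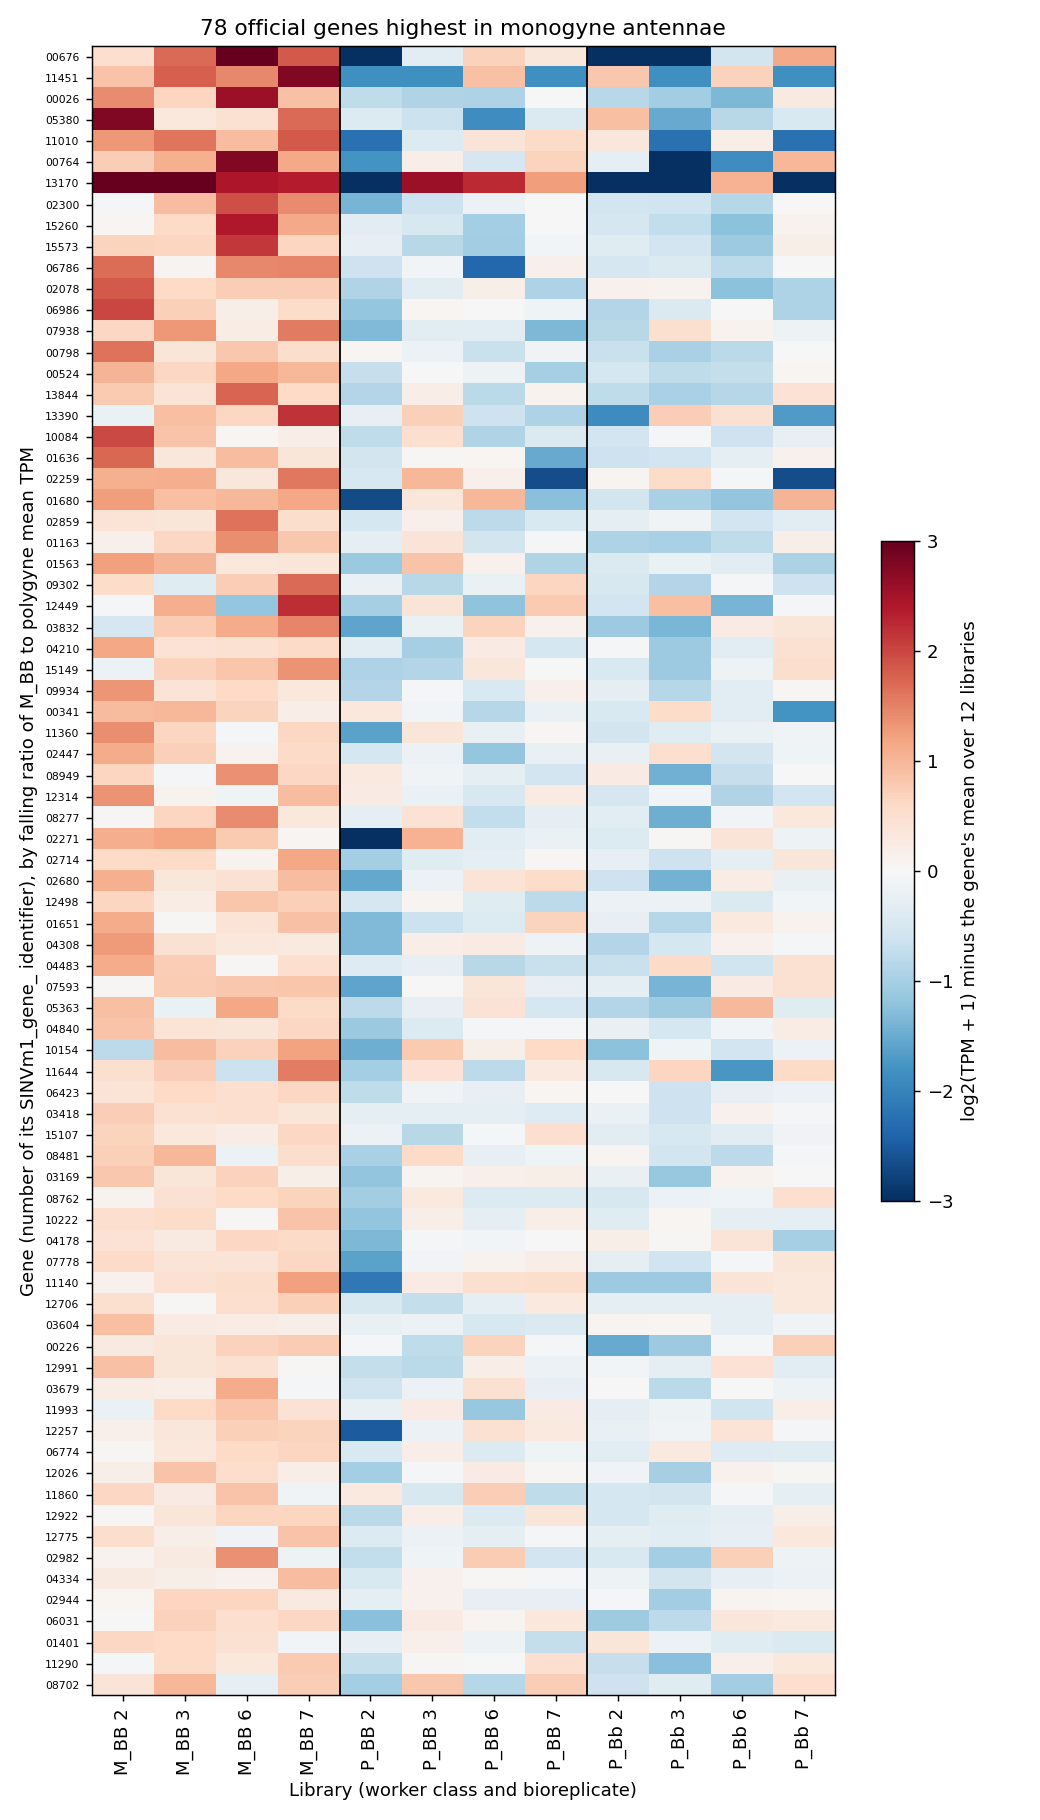
Heat map of the 78 genes (rows, by falling ratio of the M_BB mean to the polygyne mean) in the 12 libraries (columns, by class and bioreplicate), as log2(TPM + 1) minus the gene's mean over the libraries. Red stands for levels above and blue for levels below the gene's mean. The 4 M_BB columns are mostly red, as the selection required, with the darkest cells of the upper rows in M_BB bioreplicates 2 and 6, and P_BB bioreplicate 2 is the palest or bluest column for many lower rows.

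The size of the difference varied widely among the genes. The ratio of the M_BB mean to the polygyne mean had a median of 1.90 and ran from 1.50 to 6.76. It was at least 3 in 13 genes, at least 2 in 34 and under 2 in the other 44. In 18 genes every M_BB library was above every polygyne library, against 25 of the 8316 official genes in the same TPM window (0.301%), a count that the selection itself raises. RSEM also gives a credibility interval for each TPM value. The M_BB interval lay wholly above those of both polygyne libraries of its bioreplicate in all 4 bioreplicates for 1 gene, in 3 of them for 8 genes, in 2 for 12 genes, in 1 for 32 genes and in none for 25 genes. For these 25, the interval of M_BB overlapped that of a polygyne library in every bioreplicate. Of the 8316 official genes, 3 were apart in all 4 bioreplicates, 31 in 3, 327 in 2, 2009 in 1 and 5946 in none, counts that the selection was bound to shift.

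7 of the 78 genes have a predicted function in the study's gene table, which was drawn up on these same libraries, so their direction is not independent evidence. They fall under lipid metabolism, hemocytes, membrane transport and RNA binding. The names come from that table, and the grouping into lists was made for this description from the named functions and was not taken from the table.

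Among the lipid genes, the fatty acid synthase gene SINVm1_gene_00676, whose product builds long-chain fatty acids, was at 10.2, 24.8, 97.6 and 27.7 TPM in M_BB bioreplicates 2, 3, 6 and 7. It was at 0, 5.43, 11.9 and 9.12 TPM in P_BB and at 0, 0, 4.43 and 16.6 TPM in P_Bb. Its ratio of 6.76 was the largest of the 78, yet the lowest M_BB library (Rui7) was below the highest polygyne libraries, and the polygyne values rest on 0 to 7.27 expected counts per library. Without Tan1, its highest M_BB library, the ratio was 3.52. This model is 465 bases long and was removed by the count filter of the tests.

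The fatty acyl reductase gene SINVm1_gene_01163, of a family that turns fatty acyl chains into the alcohols of waxes and some pheromones, was at 20.6, 28.8, 49.7 and 33.1 TPM in M_BB. It was at 14.9, 24.4, 12.2 and 17.9 TPM in P_BB and at 9.19, 8.92, 10.5 and 21.0 TPM in P_Bb. The M_BB mean was 33.0 ± 12.3 TPM (SD, n = 4), P_BB lay between at 17.4 ± 5.27 TPM (SD, n = 4) and P_Bb was lowest at 12.4 ± 5.77 TPM (SD, n = 4). P_Bb was below P_BB in 3 of the 4 colonies, and the neighbouring classes overlapped.

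The gene of an ATP-binding cassette transporter of subfamily G, SINVm1_gene_12498, was among the most abundant of the 78. Members of this family export lipids and other hydrophobic compounds across membranes. It was at 137, 101, 154 and 142 TPM in M_BB, at 60.9, 92.2, 66.8 and 50.1 TPM in P_BB and at 77.0, 76.1, 64.4 and 82.4 TPM in P_Bb. No polygyne library reached the lowest M_BB library, and the ratio was 1.88. Of the 5 genes of the lipid list, 3 are among the 78. Of the other 2, the acyl-delta desaturase-like gene SINVm1_gene_14166 met the rule with a ratio of 4.07 (225 ± 103 TPM in M_BB, SD, n = 4, against 55.3 ± 21.6 TPM, SD, n = 8) and was the gene set aside by name, and the glycerol-3-phosphate acyltransferase 3-like gene SINVm1_gene_01650 had a ratio of 1.496, just under the limit.

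Both genes of the hemocyte list are among the 78. The croquemort-like gene SINVm1_gene_06423 is related to a *Drosophila* scavenger receptor with which hemocytes take up dead cells. It was at 66.0, 75.8, 70.7 and 76.8 TPM in M_BB, the narrowest range of the 78 genes (1.164-fold from lowest to highest). It was at 28.8, 46.2, 41.5 and 51.3 TPM in P_BB and at 49.3, 31.6, 41.5 and 43.7 TPM in P_Bb. All 8 polygyne values were below all 4 M_BB values, with a ratio of 1.73.

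The prophenoloxidase subunit 2 gene SINVm1_gene_02300, the precursor of the enzyme that melanises wounds and pathogens, was less abundant and less even. It was at 4.56, 9.98, 21.2 and 14.5 TPM in M_BB, at 1.19, 2.77, 4.11 and 4.76 TPM in P_BB and at 2.86, 2.84, 2.21 and 4.83 TPM in P_Bb. The ratio of the means was 3.92, but M_BB bioreplicate 2 was below both polygyne libraries of Bo5. P_BB (3.21 ± 1.58 TPM, SD, n = 4) and P_Bb (3.19 ± 1.14 TPM, SD, n = 4) were level. The summed level of both hemocyte genes ran from 70.6 to 91.9 TPM in M_BB, from 30.03 to 56.1 TPM in P_BB and from 34.5 to 52.2 TPM in P_Bb, and neither gene was at 0 in any library. The summed level of the 4 lipid enzyme genes taken as markers of fat body and oenocytes (SINVm1_gene_00676, SINVm1_gene_14166, SINVm1_gene_01163 and SINVm1_gene_01650) ran from 214 to 522 TPM in M_BB, from 86.5 to 167 TPM in P_BB and from 89.99 to 169 TPM in P_Bb. The study's gene table lists all of these hemocyte and lipid genes as higher in monogyne workers, on the same libraries. Higher M_BB sums were thus fixed by the choice of genes and do not measure cell types. The part of cell composition in the difference was not tested.

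The transporter and the RNA-binding gene were steadier. SINVm1_gene_03418, a transporter of the major facilitator superfamily, whose members carry small solutes, was at 51.1, 41.8, 43.1 and 39.0 TPM in M_BB. In P_BB it was nearly constant, at 24.4, 24.4, 24.4 and 23.1 TPM, and in P_Bb it was at 26.3, 19.3, 33.4 and 29.2 TPM. No polygyne library reached the lowest M_BB library. SINVm1_gene_12026, polyadenylate-binding protein 1, which binds the poly(A) tail of mRNAs in translation and decay, was at 116, 185, 148 and 117 TPM in M_BB. It was at 49.7, 98.1, 121 and 105 TPM in P_BB and at 95.2, 50.8, 113 and 105 TPM in P_Bb, so that the highest polygyne library overlapped M_BB, and without bioreplicate 3 its ratio was 1.29.

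**Figure D2:**
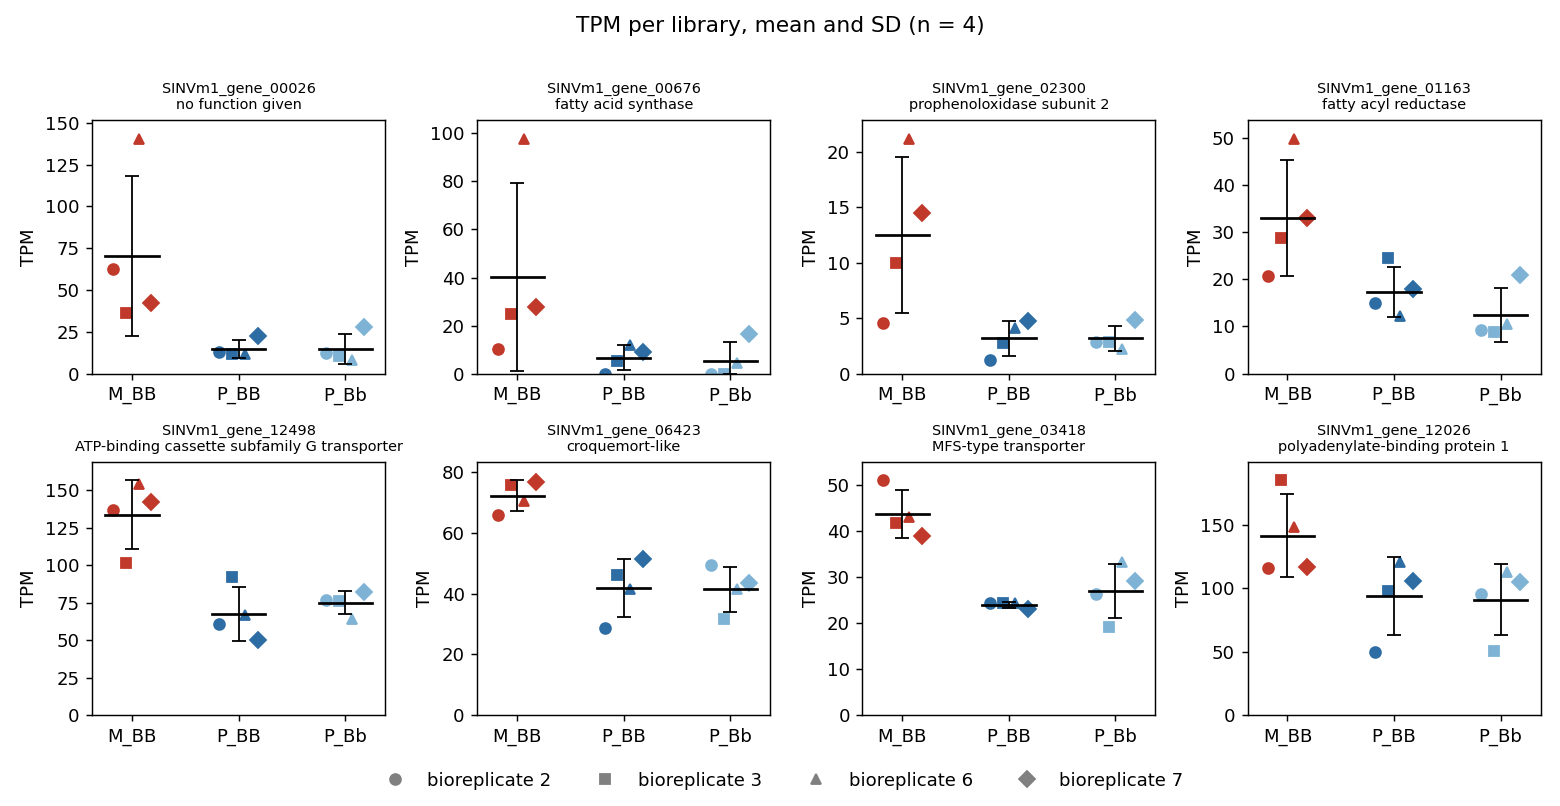
TPM (linear axes from 0) per library of SINVm1_gene_00026 and of the 7 genes with a predicted function, by worker class. Symbols mark the bioreplicate, the long bar is the mean and the error bar the SD (n = 4), drawn no lower than 0. SINVm1_gene_00026, SINVm1_gene_00676, SINVm1_gene_02300 and SINVm1_gene_01163 were highest in M_BB bioreplicate 6 with a wide spread, whereas SINVm1_gene_06423 and SINVm1_gene_03418 had 4 close M_BB values above every polygyne value.

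The other 71 genes carry no function in the sources used here. SINVm1_gene_00026 was at 62.6, 36.0, 140.3 and 42.5 TPM in M_BB, at 13.1, 11.6, 11.5 and 22.8 TPM in P_BB and at 12.3, 10.6, 8.37 and 27.7 TPM in P_Bb. Every M_BB library was above every polygyne library, and this was the gene whose RSEM intervals were apart in all 4 bioreplicates. The M_BB mean was 70.4 ± 48.0 TPM (SD, n = 4) and the polygyne mean 14.7 ± 6.76 TPM (SD, n = 8), a ratio of 4.78 that was 3.19 without Tan1. P_BB and P_Bb had the same mean within the rounding of the values (14.7 TPM each).

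Some of the largest ratios came with one outlying monogyne colony. In 14 of the 78 genes the highest M_BB library was at least 2 times the next, and this library was Tan1 in 7, Rui7 in 4 and Rui1 in 3. SINVm1_gene_00764 was at 59.4 TPM in Tan1 against 13.7 to 18.4 TPM in the other M_BB libraries and 0 to 16.7 TPM in the polygyne libraries. SINVm1_gene_15260 was at 68.9 TPM in Tan1, 12.9 to 28.1 TPM in the other M_BB libraries and 4.69 to 13.4 TPM in the polygyne libraries. SINVm1_gene_15573 was at 50.2 TPM in Tan1, 17.3 to 17.5 TPM in the other M_BB libraries and 4.49 to 12.3 TPM in the polygyne libraries.

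In some of these genes the polygyne colonies also had an order in common. In SINVm1_gene_00026, SINVm1_gene_00764, SINVm1_gene_15260, SINVm1_gene_15573 and SINVm1_gene_02300, the P_BB and P_Bb libraries of Bo5 were both above the other 6 polygyne libraries, a pattern noticed in the values. This held for 5 of the 21 genes with their highest M_BB level in Tan1, for 5 of the 25 led by Rui1, for 12 of the 78 genes (15.4%) and for 5.30% of the 8316 official genes in the same TPM window. Both libraries of Bang3 were above the other 6 in 5 of the 78 genes (6.41%) and in 14.3% of the 8316, and other Tan1-led genes had another colony on top, such as Gui3 in SINVm1_gene_02859 and Bang3 in SINVm1_gene_02982 and SINVm1_gene_05363. Nestmate libraries share a colony and a library name prefix, whose part was not tested.

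Rui7 led in another set. SINVm1_gene_05380 was at 75.4 TPM in Rui7 against 12.9, 14.4 and 35.3 TPM in the other M_BB libraries. Its highest polygyne levels, 20.0 TPM in P_Bb and 7.39 TPM in P_BB, came from bioreplicate 2 as well. They rest on 10 and 3 expected counts, and Bo5 was at 7.28 TPM in P_BB and 7.18 TPM in P_Bb. The order among the lower polygyne libraries was thus not resolved. SINVm1_gene_02078 was at 23.6 TPM in Rui7, 9.47 to 10.6 TPM in the other M_BB libraries and 1.93 to 6.81 TPM in the polygyne libraries. SINVm1_gene_00798 was at 17.1 TPM in Rui7, 6.60 to 9.24 TPM in the other M_BB libraries and 2.00 to 5.07 TPM in the polygyne libraries, on 1 to 11.5 expected counts a library.

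Over all 78 genes, the highest M_BB library was Rui7 in 26, Rui1 in 25, Tan1 in 21 and Zhuang3 in 6. Of the 8316 official genes in the same TPM window, the highest M_BB library was Zhuang3 in 40.4%, Tan1 in 29.3%, Rui1 in 16.4% and Rui7 in 13.9%. The 78 genes were thus least often led by the library that led most often in general. The rule used these TPM values and removes genes in which an M_BB library is low within its bioreplicate. Rui7 was the lowest of all 12 libraries, or tied for it, for 3029 of the 8316, and these could not be taken. The order of the M_BB libraries in the 78 is therefore a description. The M_BB libraries differed from lowest to highest by a median of 2.12-fold in the 78 genes and 2.30-fold in the official genes in the same TPM window. The range was under 1.5-fold in 9 of the 78 (11.5%, against 12.1%) and at least 3-fold in 16 (20.5%, against 31.3%). The rule bears on these ranges in the same way. Without its highest M_BB library, each of the 78 genes still had an M_BB mean above its polygyne mean, with a median ratio of 1.62 (from 1.12 to 4.36), and 53 were still at 1.5 or more.

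The genes with the widest gap, by the ratio of the lowest M_BB library to the highest polygyne library, were SINVm1_gene_00524, SINVm1_gene_15573, SINVm1_gene_02078, SINVm1_gene_11010 and SINVm1_gene_00798. A wide gap did not mean an even level in M_BB, since SINVm1_gene_15573 and SINVm1_gene_02078 are among the genes led by a single colony. SINVm1_gene_00524 had the widest gap of the 78, with the lowest M_BB library 1.50 times the highest polygyne library. It was at 34.7, 25.8, 38.2 and 34.0 TPM in M_BB, at 9.87, 16.5, 14.8 and 7.78 TPM in P_BB and at 11.2, 9.34, 9.70 and 17.1 TPM in P_Bb. These levels rest on 13 to 30 expected counts in the M_BB libraries and 4 to 10 in the polygyne libraries.

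The most abundant of the 78 were mainly short models. SINVm1_gene_09934 (531 bases) had the highest mean, 294 TPM over the 12 libraries. It was at 674, 358, 407 and 336 TPM in M_BB, at 147, 264, 195 and 297 TPM in P_BB and at 218, 148, 211 and 276 TPM in P_Bb, with no overlap. SINVm1_gene_06786 (243 bases) was at 413, 137, 350.2 and 359.9 TPM in M_BB and from 24.5 to 144 TPM in the polygyne libraries, so that its lowest M_BB library (Zhuang3) fell within the polygyne range. SINVm1_gene_09302 (264 bases) was at 249.9, 134, 284 and 556 TPM in M_BB and from 91.7 to 266 TPM in the polygyne libraries.

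Counts set how firmly a level is known. SINVm1_gene_06786 rests on 11 to 37 expected counts in M_BB and 2 to 11 in the polygyne libraries. SINVm1_gene_13170, the shortest model at 189 bases, was at 231, 221, 129 and 122 TPM in M_BB on only 2 to 5 expected counts, at 0, 141, 112 and 56.4 TPM in P_BB and at 0 in 3 of the 4 P_Bb libraries. SINVm1_gene_11451 (300 bases) had 1 to 3 expected counts in M_BB and 0 or 1 in the polygyne libraries, and SINVm1_gene_11010 4 or 5 in M_BB and 0 to 2 in the polygyne libraries. Differences of that size were not resolved at this depth.

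The 78 genes were shorter than the 8316 official genes at a mean TPM of 5 to 500, which include them. Their median length was 873 bases against 1185 bases, and 27 (34.6%) were under 600 bases against 22.6%. Level and counts go with the TPM values that the rule used. The median of the mean levels was 20.1 TPM against 33.7 TPM, within the same window. At least 10 expected counts in every library were found for 39 (50.0%) against 67.0%, and 8 (10.3%) had no count in some library against 9.98%. Models with several transcripts were 2 of the 78 (2.56%) against 2.30%.

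Genes near the limits of the rule show where the set ends. Just inside the ratio of 1.5 were SINVm1_gene_08702, SINVm1_gene_11290 and SINVm1_gene_01401, with ratios of 1.502, 1.508 and 1.509. Just outside were SINVm1_gene_09025, SINVm1_gene_14771 and SINVm1_gene_05486, with 1.496, 1.485 and 1.479. SINVm1_gene_08702 was at 45.2, 69.8, 28.9 and 58.4 TPM in M_BB, and its P_BB level of 58.02 TPM in Bo5 was within 1 TPM of the M_BB library of the same bioreplicate. At the limits of level, SINVm1_gene_15107 was inside at a mean of 5.16 TPM and SINVm1_gene_13194 outside at 4.65 TPM. SINVm1_gene_09934 was the most abundant inside, and SINVm1_gene_10059 outside at 703 TPM. A further 28 official genes with a mean under 5 TPM and 3 with a mean over 500 TPM met every other part of the rule.

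Within each bioreplicate the median ratio of the 78 genes, as M_BB over the mean of P_BB and P_Bb, was 2.30 in bioreplicate 2, 1.74 in bioreplicate 3, 1.65 in bioreplicate 6 and 1.67 in bioreplicate 7. The official genes in the same TPM window had medians of 0.815, 1.18, 0.968 and 0.859. A ratio of at least 1.5 was reached by 69, 55, 46 and 48 of the 78 genes. Bioreplicates 3 and 6, whose libraries all have the LGC prefix, and bioreplicate 7, whose libraries all have LGC16, gave like medians. Bioreplicate 2, in which the M_BB library has another prefix than its polygyne libraries, gave the highest. Its P_BB library also had the lowest TPM of any library, or tied for it, for 33 of the 78 genes, and a TMM factor of 0.842. No other bioreplicate mixes prefixes, so prefix and library cannot be told apart here. The study also lists a share of duplicate reads per library, which was higher in M_BB and P_BB of bioreplicate 2 than in most other libraries. The part of the prefix or of duplicate reads in these medians was not tested.

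**Figure D3:**
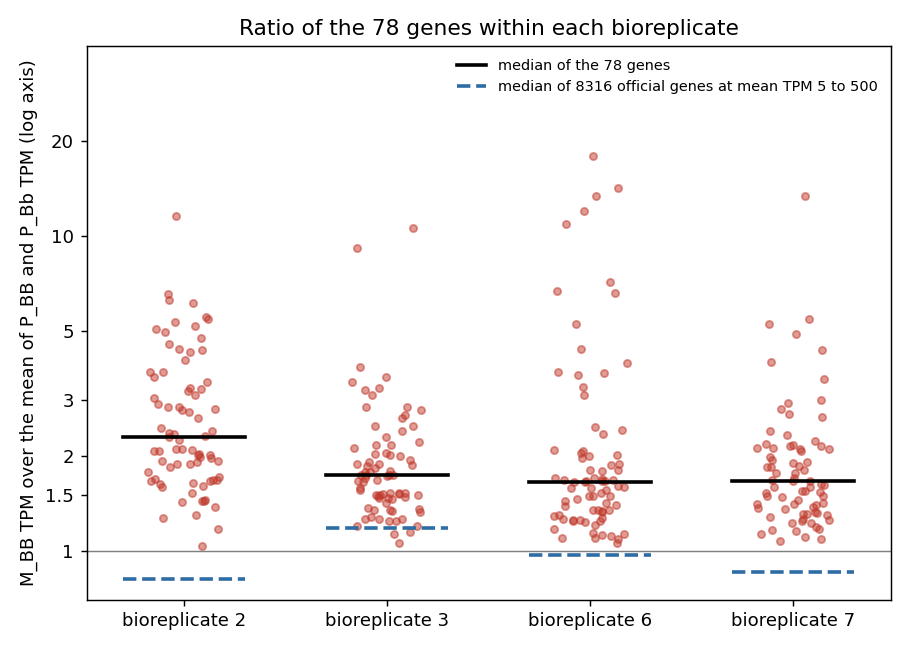
Ratio of M_BB TPM to the mean of P_BB and P_Bb TPM (log axis) for the 78 genes within each bioreplicate, with 1 point a gene. Genes at 0 in both polygyne libraries of a bioreplicate (2 in bioreplicate 2, 1 in bioreplicate 3 and 2 in bioreplicate 7) have no point. Black bars mark the medians of the 78 genes (2.30, 1.74, 1.65 and 1.67), and dashed blue bars those of 8316 official genes with a mean TPM of 5 to 500, which lay closest to the 78 in bioreplicate 3.

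In edgeR's quasi-likelihood model with the 3 classes, 65 of the 78 were kept by the count filter, which left 10503 genes to test. The median log2 fold change of the 65 was 1.01 for M_BB against the polygyne libraries, −0.95 for P_BB against M_BB and −0.98 for P_Bb against M_BB, contrasts that share the M_BB libraries. SINVm1_gene_00026 was the 1 gene of the 65 to pass for social form (log2 fold change 2.34, SE 0.37, adjusted p = 0.0449, edgeR with Benjamini-Hochberg adjustment), where 0.019% of all genes tested were called higher in M_BB. Since that contrast chose the genes, nothing is read from the count. The call was lost when any 1 of 10 of the 12 libraries was left out, the exceptions being M_BB bioreplicate 3 and P_Bb bioreplicate 7 (adjusted p from 0.0131 to 0.184 over the 12 omissions). With the bioreplicate as a block its log2 fold change was 2.34 and its adjusted p 0.0841 (edgeR; from 7.8e-06 with DESeq2 to 0.236 with limma over all alternatives) and no gene at all passed for social form. With the library name prefix as a covariate its log2 fold change was 2.33 (adjusted p = 0.0670, edgeR), and without a filter on low counts 2.34 (adjusted p = 0.0633, edgeR), so that the call was lost with the difference about as large.

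The genotype of nestmates was compared too, but the selection limited this difference from both sides. It kept P_Bb below M_BB in every bioreplicate, which removes genes raised above M_BB in SB/Sb workers, and it removed genes with P_Bb lowest in every bioreplicate. The values between P_Bb and P_BB are thus also a description, and the lack of calls is read for nothing. None of the 65 passed for P_Bb against P_BB (edgeR, adjusted p = 0.999969 for each of the 65), where 0.133% of all genes were called, and none had an unadjusted p under 0.05, where 1.01% of all genes did. DESeq2 called none of them either. The log2 fold changes had a median of −0.10 (from −0.82 to 0.47), against 0.01 over all genes tested, and their standard errors had a median of 0.41. Of the 65, 22 were above 0 and 43 below, where 51.8% of all genes tested were above 0.

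The 5 of the 65 tested genes with the largest fitted genotype difference were lower in P_Bb, and none of these differences passed the test. The largest fitted differences upward were 0.47 for SINVm1_gene_04483 and 0.42 for SINVm1_gene_02447. Among genes that were not tested, the ratio of P_Bb to P_BB mean TPM ran from 0.157 for SINVm1_gene_13170 to 1.83 for SINVm1_gene_07938. It was 0.684 for SINVm1_gene_11010, 1.54 for SINVm1_gene_05380 and 1.81 for SINVm1_gene_11451. All of these rest on 10 or fewer expected counts in each polygyne library. SINVm1_gene_10154 was at 3.87, 9.49, 6.70 and 9.25 TPM in P_Bb against 3.19, 18.8, 11.9 and 16.6 TPM in P_BB of the same colonies, with a log2 fold change of −0.82 (SE 0.55). SINVm1_gene_12314 was at 11.9, 16.4, 8.81 and 11.4 TPM in P_Bb against 20.6, 14.9, 12.1 and 20.6 TPM in P_BB, with −0.55 (SE 0.48). The fatty acyl reductase gene SINVm1_gene_01163 had −0.54 (SE 0.34), SINVm1_gene_09302 −0.53 (SE 0.51) and SINVm1_gene_08702 −0.49 (SE 0.48). At the genes with a predicted function other than the reductase and the untested synthase, the estimates were closer to 0, at 0.13 (SE 0.24) for SINVm1_gene_12498, −0.04 (SE 0.48) for SINVm1_gene_02300, −0.03 (SE 0.21) for SINVm1_gene_06423, −0.06 (SE 0.24) for SINVm1_gene_12026 and 0.12 (SE 0.24) for SINVm1_gene_03418. The standard errors of the 65 genes ran from 0.21 to 0.85. They come from the fit of all 12 libraries, M_BB included, with no term for the colony that nestmates share. They thus limit what this fit could detect and are not the limit of a paired comparison of nestmates.

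**Figure D4:**
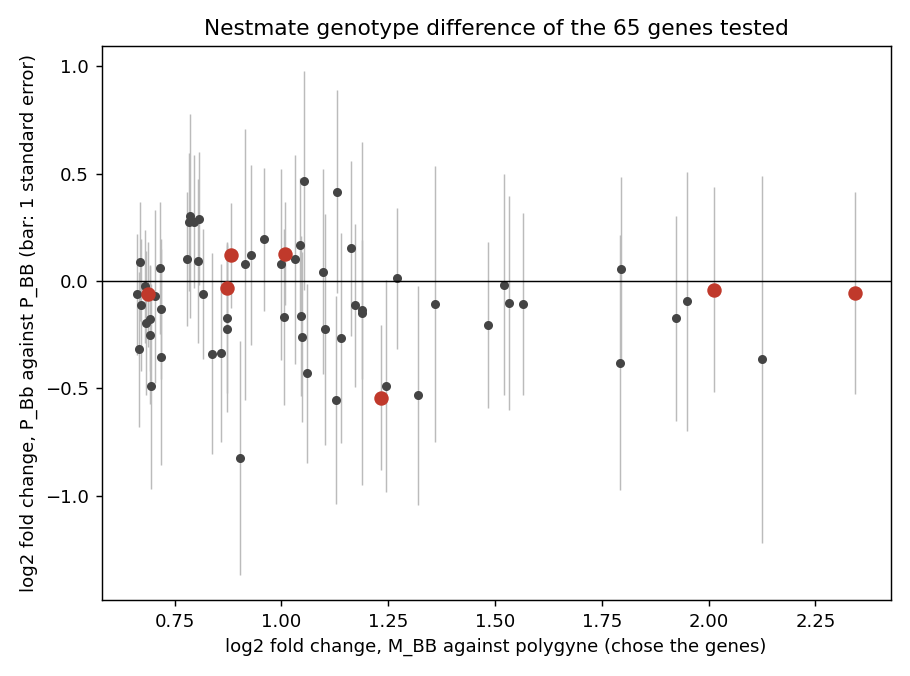
log2 fold change of P_Bb against P_BB (vertical axis) and of M_BB against the polygyne libraries (horizontal axis) for the 65 genes tested. The horizontal axis is the contrast that chose the genes. Bars are 1 standard error, derived from edgeR's F statistic. Red points are SINVm1_gene_00026 and the tested genes with a predicted function. The points scatter around the line at 0 on the vertical axis, from −0.82 to 0.47.

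The sign of the nestmate difference varied by colony. P_Bb was above P_BB for 58 of the 78 genes in Rui9, 18 in Gui3, 29 in Bang3 and 43 in Bo5. The same shares over the official genes in the same TPM window were 65.6%, 31.6%, 53.3% and 63.7%, against 74.4%, 23.1%, 37.2% and 55.1% of the 78. The colonies ranked alike in both, so the variation by colony was not particular to the 78 genes. These TPM values were not rescaled by the TMM factors, which differed between the nestmate libraries of some colonies. The part of library scaling in these shares was not tested. P_Bb was above P_BB in all 4 colonies for 3 genes, SINVm1_gene_07938, SINVm1_gene_02447 and SINVm1_gene_03604, and in none for SINVm1_gene_13170. The share of all official genes with such an order was not counted, so nothing is read from these counts. SINVm1_gene_07938 rests on only 2 to 5 expected counts in P_Bb and 1 to 3 in P_BB. SINVm1_gene_03604 was at 8.04, 7.82, 6.04 and 6.94 TPM in P_Bb against 6.27, 6.57, 5.10 and 5.34 TPM in P_BB, a log2 fold change of 0.28 (SE 0.31).

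Of the official genes of the study's table, 8 are transposable elements (its assembled loci were not used here). None of these is among the 78, and of the 7 tested 3 were called higher in P_Bb than in P_BB and 1 lower in M_BB than in the polygyne libraries (edgeR, adjusted p under 0.05). Of the 5 genes of a list of carbohydrate, conjugation and other metabolic enzymes, all tested, none is among the 78. The 1 called higher in P_Bb was SINVm1_gene_00401, a probable cytochrome P450 (log2 fold change 6.30, SE 0.87, adjusted p = 0.0106, edgeR). The other genes of the list ran from −0.20 (iduronate 2-sulfatase) to 0.05 (trehalose-phosphate synthase). Of the 3 genes for transport and signalling 1 is among the 78, and of the 3 odor genes examined (SiOR463 and an odorant-binding protein of the table, and SiOR462) none. Neither of these lists held a called gene in either comparison, but the odorant-binding protein gene was close. SINVm1_gene_02111 was at 61.6 ± 31.7 TPM (SD, n = 4) in P_Bb, 3.82 ± 4.57 TPM in P_BB and 0.73 ± 0.94 TPM in M_BB. Its log2 fold change for P_Bb against P_BB was 3.95 (SE 0.73, adjusted p = 0.0503, edgeR). SiOR463 was at −1.09 (SE 0.36). The study reported both as differing by genotype.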

How the data were processed

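Antennal RNA of 12 worker libraries was amplified and sequenced. Per the study's methods the authors used trimmed reads, mapped with Bowtie2 onto the official genes plus assembled loci with levels estimated in RSEM, each library by itself. They deposited an expected count per gene (not scaled for depth), its TPM (length-corrected, with a fixed total per library) and RSEM bounds of the TPM, which were treated as a signal per library. The level of these bounds is not given in the sources used here. The deposited exon annotation was not used, and positions and sequences are not given here.

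The 78 genes were found from the TPM values, and the genes and lists were chosen with earlier results of these data known. Expected counts were rounded and tested with edgeR 4.0.16 (R 4.3.3, TMM, filterByExpr, robust quasi-likelihood, 3 classes, all 12 libraries), with Benjamini-Hochberg adjustment over 10503 genes at 0.05. DESeq2 1.42.0 and limma 3.58.1 on log2(TPM + 1) and log2(TPM + 0.1) were alternatives, as were other size factors, filters (none, 10 counts), the library name prefix, the bioreplicate as a block, left-out libraries, an adjusted p of 0.01 and other forms of the rule. The edgeR model was tested on simulated data. Standard errors (SE) of its log2 fold changes were derived as the absolute fold change over the square root of the F statistic. Values are means ± SD over libraries, and depth was 1662249 to 4101327 expected counts per library, which limits genes of a few TPM. Figures were drawn with matplotlib 3.10.9 (Python 3.11.15, pandas 2.3.3).

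Nestmates of a bioreplicate share a colony, and the supplementary methods give the monogyne colony of that number the same days, so the numbers pair the libraries. Departures of libraries from their class mean, for pairs with 1 number, correlated across genes with a median of 0.233 over 12 pairs (lowest −0.362, highest 0.650). The median was −0.0876 for different numbers and 0.402 between nestmates. P-values measure the spread between these libraries.

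The genes named in the text are those in the study's gene table, the 10 with the largest ratio, the 5 with the highest mean TPM, the 3 on each side of the 1.5 limit, the 5 with the largest fold change between nestmates, the 5 with the widest gap between M_BB and polygyne libraries, and those passing for social form. SINVm1_gene_07938, SINVm1_gene_02447, SINVm1_gene_03604, SINVm1_gene_04483, SINVm1_gene_02859, SINVm1_gene_02982, SINVm1_gene_05363 and the genes at the limits of level were named after their values were seen.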

Additional observations from a re-analysis of the deposited data

Results flagged for a closer look

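Among the named genes and the summed level, 81 groups of 4 libraries were examined for a library far from the other 3 by Dixon's test. Of these, 8 stood out. The usual rate of about 1 in 20 does not apply, since many of the named genes were picked for extreme values. No excess is read from the count. Of the 8, 3 were monogyne libraries. SINVm1_gene_00764 was at 59.39 TPM in Tan1 (nearest 18.41), SINVm1_gene_15573 at 50.2 TPM in Tan1 (nearest 17.53) and SINVm1_gene_02078 at 23.55 TPM in Rui7 (nearest 10.57). In the P_BB libraries, SINVm1_gene_00026 was at 22.77 TPM in Bo5 (nearest 13.05), and SINVm1_gene_03418 at 23.06 TPM in Bo5, low against a nearest value of 24.35. SINVm1_gene_11451 was at 5.63 TPM in P_BB of Bang3, on 1 expected count, with the other 3 at 0. In the P_Bb libraries, SINVm1_gene_01163 was at 20.99 TPM in Bo5 (nearest 10.51). SINVm1_gene_13170 was at 48.68 TPM in P_Bb of Bang3, on 1 expected count, with the other 3 at 0.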

How the results depend on the processing

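The set depends on its rule. It held 78 genes as given, 34 at a ratio of at least 2 and 126 at a limit between 1 and 1.5. With TMM-scaled CPM in place of TPM it held 118, of which 60 were among the 78, and with TPM rescaled by the TMM factors 54, of which 49 were. It held 39 when 10 counts were required in every library. Without a bioreplicate it held 130 to 256 genes, of which 52 to 67 were among the 78, since 3 orders are easier to meet than 4. For the 78 genes, the summed M_BB level over the polygyne level was 1.86 to 2.15 without a bioreplicate (2.04 with all), the median ratio 1.67 to 1.95, and the median ratio of P_Bb to P_BB 0.912 to 1.11, crossing 1 without bioreplicate 3.

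For social form, 5 genes passed, 1 of them among the 78. These counts were 26 and 13 with DESeq2, 3 and 0 with limma on log2(TPM + 0.1), 2 and 0 with limma on log2(TPM + 1), and 0 and 0 with the prefix as a covariate, with the replicate block and at an adjusted p of 0.01. Leaving out a library gave 0 to 6 and 0 to 2. For P_Bb against P_BB, 14 genes passed with edgeR, 28 with DESeq2, 2 with at least 10 counts in every library, 8 with the prefix, 4 with limma on log2(TPM + 0.1), 9 with limma on log2(TPM + 1), 11 with the replicate block and 1 at an adjusted p of 0.01, and leaving out a library gave 1 to 22. None of these counts held one of the 78. At an unadjusted p under 0.05, 1 of the 78 was counted by limma with either pseudocount and 1 without P_Bb bioreplicate 7, and 0 under the other settings. The causes were not tested.

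The ratios of the 26 named genes ran from 1.29 to 15.3 with TMM-scaled CPM or without a bioreplicate, and 4 genes fell under 1.5. Without a bioreplicate the rule itself keeps them above 1. Levels under about 10 counts are limited by depth.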
